A study of Mus musculus with 4 samples.

Results

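The genes described here are Zp1, Zp2 and Zp3, which encode the glycoproteins of the zona pellucida of the mouse egg, and Figla, which encodes a transcription factor of the oocyte. They were chosen by their symbols, and all 4 were found among the 32285 genes of the count tables. In the GENCODE M21 annotation (build mm10), Zp1 lies at chr19:10914287-10920632 on the minus strand, with 12 exons in its coding transcript. Zp2 lies at chr7:120126772-120145291 on the minus strand, with 18 exons. Zp3 lies at chr5:135980099-135988624 on the plus strand, with 8 exons. Figla lies at chr6:86016171-86020996 on the plus strand, with 3 exons in its coding transcript, which starts at base 86017191. No other annotated gene overlaps any of these intervals.

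The zona pellucida is the extracellular coat that a growing oocyte lays down around itself, and sperm must bind and cross it. ZP2 and ZP3 build its filaments, ZP1 links the filaments to each other, and ZP2 is cut after fertilisation by ovastacin, the product of Astl. FIGLA is a basic helix-loop-helix protein that pairs with an E protein and binds E-box sequences, among them those of the zona gene promoters. In the mouse it is needed for primordial follicles to form.

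Spatial transcriptomes were measured with the Visium assay, in which a frozen section releases its RNA onto barcoded spots, each the width of several cells, and a captured molecule counts once as a UMI (unique molecular identifier). The animals were outbred CD-1 mice, either aged (15 to 16 months) or young (3 to 4 months), with 4 animals per age and 1 section of 10 µm from each. Each of 4 capture areas held 1 aged and 1 young section, and the sections are called aged 1 to aged 4 and young 1 to young 4 after their area. Aged sections held 257 to 653 spots and 2777948 to 9506517 UMIs, and young sections held 532 to 762 spots and 9702600 to 21619232 UMIs. The median count per spot was lower in the aged section of all 4 areas, at 8779 to 14928 UMIs in aged and 14989 to 28120 UMIs in young sections. Area 3 ran against the other areas in oocyte transcripts. Another 6 genes of the oocyte (Ooep, Padi6, Gdf9, Nlrp5, Oosp1 and Bmp15) summed to 314 CPM (UMIs of a gene scaled to 1000000 UMIs of the section or spots) in aged 3 and 20.8 CPM in young 3, whereas areas 1, 2 and 4 had 19.8 to 24.9 CPM in aged and 110 to 338 CPM in young sections. Ages were read from the side of the capture area that the labels give, so the comparisons between ages are also given without area 3. Area 3 was set apart by oocyte transcripts, which go with the zona genes across spots. Leaving it out favours a difference between ages in advance, so values without area 3 are no separate support for one.

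Promoter sequences of Zp3 and Figla are shown because FIGLA acts through E-boxes, and 2 of the 4 genes had an entry in the RefSeq promoter table (build GRCm38.p6). The stretches run 5′ to 3′ on the plus strand and end before the first exon of the coding transcript, at chr5:135979855-135980098 (244 bases) for Zp3 and chr6:86016941-86017190 (250 bases) for Figla. Capitals mark E-boxes of the form CANNTG and the sequence TATAA, each searched on both strands.
Zp3: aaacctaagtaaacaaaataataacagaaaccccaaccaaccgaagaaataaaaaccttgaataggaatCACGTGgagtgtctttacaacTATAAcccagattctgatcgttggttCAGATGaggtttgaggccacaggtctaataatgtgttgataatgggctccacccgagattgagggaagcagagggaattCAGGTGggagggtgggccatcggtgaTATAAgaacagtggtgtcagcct
Figla: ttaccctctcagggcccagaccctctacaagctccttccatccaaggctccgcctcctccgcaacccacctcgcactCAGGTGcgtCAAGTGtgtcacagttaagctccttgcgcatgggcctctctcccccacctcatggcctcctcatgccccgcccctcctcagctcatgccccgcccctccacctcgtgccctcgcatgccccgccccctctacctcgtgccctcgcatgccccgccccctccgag
The Zp3 stretch held 3 E-boxes, CACGTG from 181 to 176 bases, CAGATG from 134 to 129 bases and CAGGTG from 55 to 50 bases before the RefSeq start, and TATAA at 160 to 156 and at 29 to 25 bases before it. The Figla stretch held 2 E-boxes, CAGGTG from 173 to 168 and CAAGTG from 164 to 159 bases before its start, and no TATAA. Over the 32851 RefSeq promoters, 66.2% held CANNTG in the 250 bases before the start, 17.2% held CAGGTG, 6.02% held CACGTG and 22.8% held TATAA. Both CAGGTG and CACGTG are themselves of the form CANNTG. A match describes the letters of these windows and no binding was measured.

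Zp1, which encodes the linking component, had 5, 19, 40 and 9 UMIs in aged 1 to aged 4, against 222, 138, 18 and 205 UMIs in young 1 to young 4. As a share of the section this was 0.987, 2.00, 14.4 and 1.14 CPM in aged sections and 19.6, 6.38, 1.86 and 11.9 CPM in young sections. The aged level was lower in areas 1, 2 and 4 and higher in area 3, and the ranges of the ages overlapped. In bulk sums of this kind, fewer oocytes in the plane of the section and less RNA per oocyte cannot be told apart.

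Zp2, which encodes the protein that sperm bind and ovastacin cuts, was counted at 5.92, 3.58, 40.7 and 3.54 CPM in aged 1 to aged 4, against 55.2, 16.0, 5.36 and 27.6 CPM in young 1 to young 4. Zp3, which encodes the filament partner of ZP2, was counted at 4.34, 5.47, 49.0 and 4.67 CPM in aged sections and 92.2, 28.2, 5.77 and 51.1 CPM in young sections. In all 3 zona genes young 1 was highest, aged 3 and young 4 came next, young 2 followed, and young 3 lay among or near aged 1, aged 2 and aged 4.

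Figla, the factor, had the fewest UMIs in 7 of the 8 sections, aged 1 being the exception, with 10, 9, 8 and 2 UMIs in aged 1 to aged 4, against 97, 98, 4 and 60 UMIs in young 1 to young 4. This was 1.97, 0.947, 2.88 and 0.253 CPM in aged sections and 8.55, 4.53, 0.412 and 3.47 CPM in young sections. With so few counts, the 95% exact Poisson interval of aged 4 ran over 0.0306 to 0.913 CPM and that of young 3 over 0.112 to 1.06 CPM. These intervals cover counting error only.

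**Figure D1:**
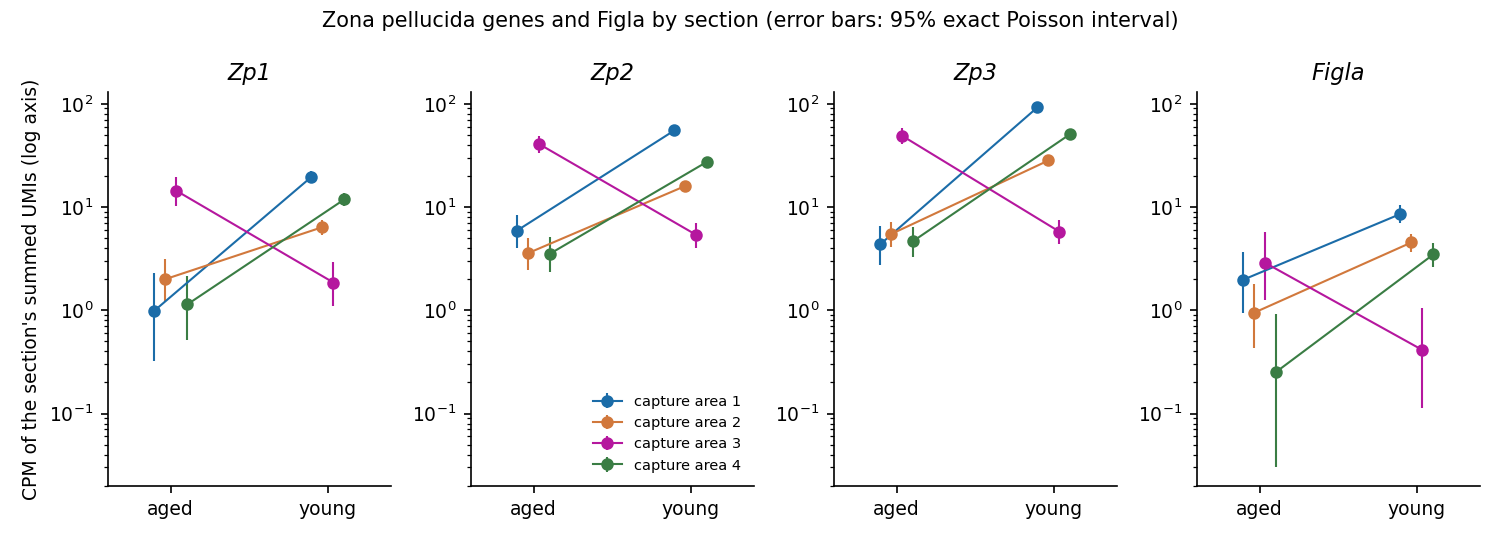
CPM of Zp1, Zp2, Zp3 and Figla in the 4 aged and 4 young sections (log axis), with lines joining the sections of a capture area and 95% exact Poisson intervals as error bars. The lines of areas 1, 2 and 4 rise towards the young section in all 4 genes, and that of area 3 runs the other way.

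Within areas, the summed zona genes differed by a log2 ratio (aged over young CPM) of -3.89 in area 1, -2.20 in area 2, 3.00 in area 3 and -3.27 in area 4. The ratios of Figla were -2.12, -2.26, 2.80 and -3.78 in the same order. Between the whole sections of the ages, edgeR's quasi-likelihood test called 0 of 14044 genes at an adjusted p of 0.05 (0%), with 392 genes at an unadjusted p under 0.05, and DESeq2 called 6 genes, none of them a member. None of the 4 members was called, with log2 fold changes (aged over young) of -1.37 ± 0.90 for Zp1, -1.20 ± 0.87 for Zp2, -1.73 ± 0.93 for Zp3 and -1.68 ± 0.86 for Figla (SE, n = 4 each, edgeR adjusted p = 1.00 for each). Without area 3, the area that ran the other way, the fold changes were -3.06 ± 0.50, -2.89 ± 0.46, -3.48 ± 0.43 and -2.41 ± 0.65 (SE, n = 3 each). The edgeR adjusted p was then 0.149, 0.149, 0.138 and 0.321 in the same order, with 0 genes called of all tested and 1261 at an unadjusted p under 0.05. Granulosa markers (12 of 12 in the tables) summed to 1225 to 5573 CPM in aged and 2181 to 3228 CPM in young sections, and endothelial markers (3 of 3) summed to 214 to 296 CPM in aged and 324 to 451 CPM in young sections, without overlap. The mitochondrial share of UMIs was higher in the aged section of all 4 areas, at 1.31 to 2.96% in aged and 0.597 to 1.88% in young sections. The part of these in the values above was not tested.

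Genes that act with the zona and FIGLA were set beside the members. Of 7 oocyte transcription factors, 5 passed the filter on low counts between ages, none was called and their median log2 fold change was -0.11, against 0.01 over all genes. Nobox and Sohlh1, which act in early oocytes, were at -0.95 ± 0.88 and -0.92 ± 0.63 (SE). Taf4b and Foxo3 were at 0.37 ± 0.54 and 0.03 ± 0.12 (SE), and of the 5 factors 2 were higher and 3 lower in aged sections. The 3 E proteins that can pair with FIGLA (Tcf3, Tcf4 and Tcf12) were at 0.14 to 0.21, and the 4 genes of the Id family, whose proteins sequester E proteins, at -0.24 to 0.39. Of 30 oocyte secreted and maternal genes, 23 were tested, 18 of these were lower and 5 higher in aged sections, none was called and the median was -0.51. Astl and Izumo1r, which encodes the egg's receptor for the sperm protein IZUMO1, were at -1.51 ± 1.02 and -1.12 ± 0.98 (SE), and Cd9 and Furin at -0.31 ± 0.25 and -0.09 ± 0.22.

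The spread of zona transcripts over spots was described by the share of spots with at least 1 zona UMI. A zona UMI was found in 15.4, 7.96, 44.7 and 13.7% of the spots of aged 1 to aged 4, against 57.9, 38.4, 9.96 and 43.0% of those of young 1 to young 4. The mean share was 20.4% ± 16.5 in aged and 37.3% ± 20.0 in young sections (SD, n = 4 each, two-sided exact permutation p = 0.314, smallest possible 0.0286). After thinning every spot to 5000 UMIs, which left out 4 to 122 spots per section, the shares were 10.6% ± 11.8 in aged and 17.0% ± 10.9 in young sections (exact permutation p = 0.371). Without area 3 the difference (aged minus young) was -34.1 percentage points, with the exact permutation p at its smallest possible value of 0.1 for 3 sections each. This separation was favoured in advance by leaving out the area that ran the other way.

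**Figure D2:**
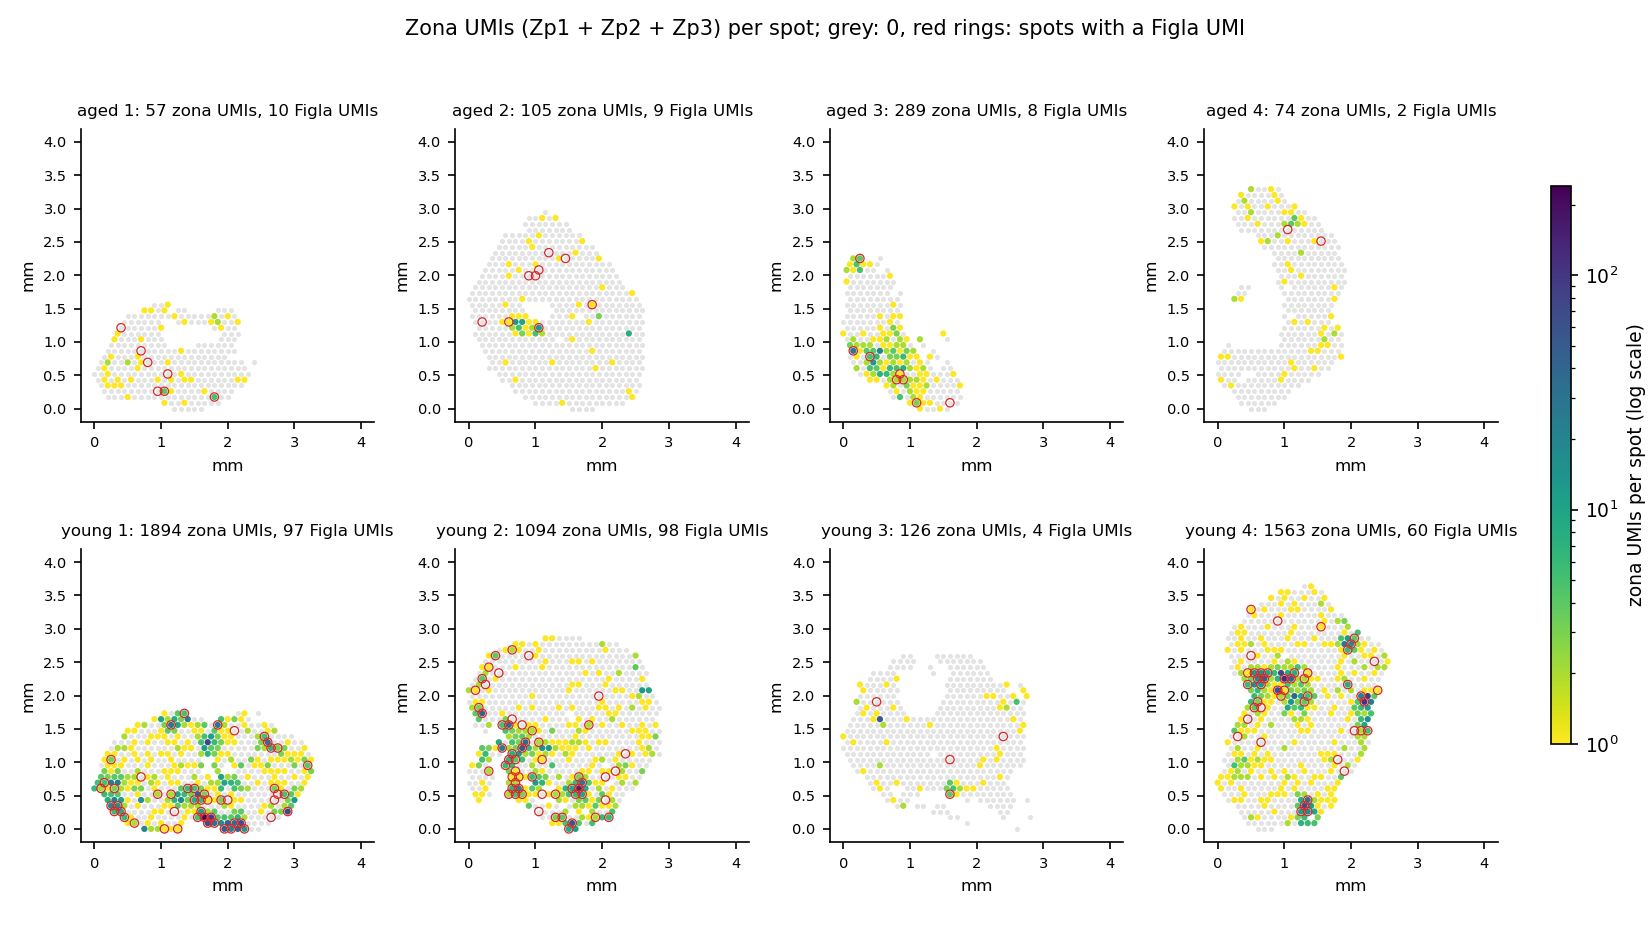
Spots of the 4 aged (upper row) and 4 young sections (lower row) at their array positions in mm, coloured by UMIs of Zp1, Zp2 and Zp3 summed (log scale), with grey for 0 and red rings for spots with a Figla UMI. Zona UMIs form clusters of dark spots in young 1, young 2 and young 4, and no spot of an aged section exceeds 26 UMIs.

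Adjoining spots with at least 3 zona UMIs each were joined into foci. There were 2, 4, 8 and 1 foci in aged 1 to aged 4, against 23, 22, 3 and 11 in young 1 to young 4, or 1.16 ± 1.32 per 100 spots in aged and 2.33 ± 1.67 per 100 spots in young sections (SD, n = 4 each, exact permutation p = 0.314). Without area 3 the difference (aged minus young) was -2.42 per 100 spots, with the exact permutation p at its smallest possible value of 0.1. Foci held 15.8, 55.2, 59.2 and 10.8% of the zona UMIs of the aged sections and 87.9, 76.6, 57.1 and 80.2% of those of the young sections. The largest focus of young 4 covered 42 spots and held 566 zona UMIs, and that of aged 3 covered 13 spots and held 92 zona UMIs.

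The richest spot of each section held 5, 12, 26 and 4 zona UMIs in aged 1 to aged 4, against 233, 140, 51 and 121 zona UMIs in young 1 to young 4. The ages did not overlap in this measure, also in area 3 (exact permutation p = 0.0286, the smallest that 4 against 4 allows), which was chosen after the values were seen. With area 3 left out, the richest spots held 4 to 12 zona UMIs in aged and 121 to 233 in young sections (exact permutation p = 0.1, the smallest possible). With the sections of an area paired, the aged section was lower in 4 of 4 areas (exact sign-flip p = 0.125, the smallest that 4 pairs allow). No aged section had a spot with 30 or more zona UMIs (0 of 1625 spots), and each young section had at least 1 (29 of 2566 spots). As CPM of the spot itself the ages overlapped, with 591, 1056, 4096 and 217 CPM in aged and 5975, 4321, 1763 and 9651 CPM in young sections (exact permutation p = 0.0571). Aged sections had fewer spots and fewer UMIs per spot, and the part of both in the counts of the richest spot was not tested.

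The make-up of the zona UMIs was compared between ages as shares. Zp3 gave 38.6, 49.5, 47.1 and 50% of the zona UMIs in aged 1 to aged 4, against 55.2, 55.8, 44.4 and 56.4% in young 1 to young 4. The mean was 46.3% ± 5.3 in aged and 53.0% ± 5.7 in young sections (SD, n = 4 each, exact permutation p = 0.343 adjusted over the 3 genes). Zp2 gave 40.5% ± 8.6 in aged and 34.1% ± 4.9 in young sections, and Zp1 gave 13.2% ± 3.9 in aged and 12.9% ± 1.1 in young sections (SD, n = 4 each, adjusted exact permutation p = 0.471 and 0.914). Without area 3 the shares of Zp3 did not overlap between ages and differed by -9.77 percentage points (aged minus young, exact permutation p = 0.1, the smallest that 3 against 3 allows), and those of Zp2 and Zp1 differed by 9.24 and 0.526 points (exact permutation p = 0.2 and 0.9). By UMIs Zp2 exceeded Zp3 in aged 1, with 30 against 22 UMIs, and Zp3 exceeded Zp2 in the other sections. A captured molecule counts once as a UMI, so these are shares of molecules. Dividing by the length of the coding transcript (1963 bases for Zp1, 2221 for Zp2 and 1323 for Zp3) raises the share of Zp3, the shortest. Zp3 then made up 50.9 to 61.9% of the zona UMIs per kilobase in aged and 56.5 to 67.7% in young sections. Zp2 made up 23.8 to 41.3% in aged and 21.7 to 31.3% in young sections, and Zp1 7.79 to 15.1% and 9.54 to 12.2%. These shares per length do not measure molecules.

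Figla was counted at 17.5, 8.57, 2.77 and 2.70 UMIs per 100 zona UMIs in aged 1 to aged 4, against 5.12, 8.96, 3.17 and 3.84 in young 1 to young 4. The ages overlapped, with means of 7.90 ± 6.995 in aged and 5.27 ± 2.59 in young sections (SD, n = 4 each, exact permutation p = 0.714). The difference without area 3 was 3.63 (aged minus young, exact permutation p = 0.7). The value of aged 1 rested on 10 Figla UMIs and 57 zona UMIs.

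To see where in the ovary the members were found, spots were called oocyte-marked where the 6 oocyte genes named above summed to at least 3 UMIs. There were 5, 13, 72 and 8 marked spots in aged 1 to aged 4 and 197, 140, 13 and 127 in young 1 to young 4. Marked spots were 1.67 to 28.02% of the spots of aged and 2.40 to 37.0% of those of young sections. In these spots Zp3 was counted at 17.3, 129, 102 and 35.4 CPM in aged 1 to aged 4, against 4.04, 2.48, 16.8 and 3.89 CPM in their other spots. In young 1 to young 4 it was counted at 182, 113, 148 and 271 CPM in marked spots, against 17.3, 7.28, 2.11 and 10.2 CPM in other spots. Marked spots were higher in all 8 sections. Figla was at 34.6, 4.46, 4.75 and 10.1 CPM in the marked spots of aged 1 to aged 4, against 1.21, 0.862, 1.74 and 0 CPM in their other spots, and at 16.9, 18.1, 4.11 and 17.3 CPM in those of young 1 to young 4, against 1.62, 1.15, 0.317 and 0.893 CPM. The marked spots of aged 1 to aged 4 held only 4, 1, 5 and 2 Figla UMIs, and those of young 3 held 1. In aged 4 Zp1 was the exception and was not higher in marked spots, with 0 UMIs in its 8 marked spots and 9 UMIs in its other spots.

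All 4 members rose in marked spots. The log2 fold changes of marked over other spots, with the section as a block, were 4.09 ± 0.32 for Zp1, 3.63 ± 0.27 for Zp2, 4.09 ± 0.27 for Zp3 and 3.79 ± 0.33 for Figla (SE, n = 8 sections, edgeR adjusted p = 4.76e-08, 1.78e-08, 3.87e-09 and 1.87e-07). Of 12629 genes tested, 790 rose (6.26%) and 833 fell (6.6%). Figla lay at no more than 1.74 CPM in the other spots of any section, and Zp1 at 0.539 to 4.63 CPM. Figla passed the filter on low counts through its marked spots, and Zp1 mainly so, which favoured a rise in advance. The adjusted p of these 2 genes is therefore no separate support. With no filter on low counts the fold change was 3.78 ± 0.32 for Figla and 4.08 ± 0.27 for Zp1 (SE). Without area 3 the fold changes were 4.09, 3.63, 4.08 and 3.94, all called by edgeR. The difference of the fold change between ages was 0.06 ± 0.65 for Zp1, -0.60 ± 0.58 for Zp2, -0.58 ± 0.55 for Zp3 and -0.26 ± 0.90 for Figla (aged minus young, SE), and none was called (edgeR adjusted p = 0.991, 0.720, 0.718 and 0.936). In the aged sections alone Zp2 and Zp3 were called at 3.38 ± 0.45 and 3.67 ± 0.44 (SE, n = 4), while Zp1 and Figla had too few counts to be tested.

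**Figure D3:**
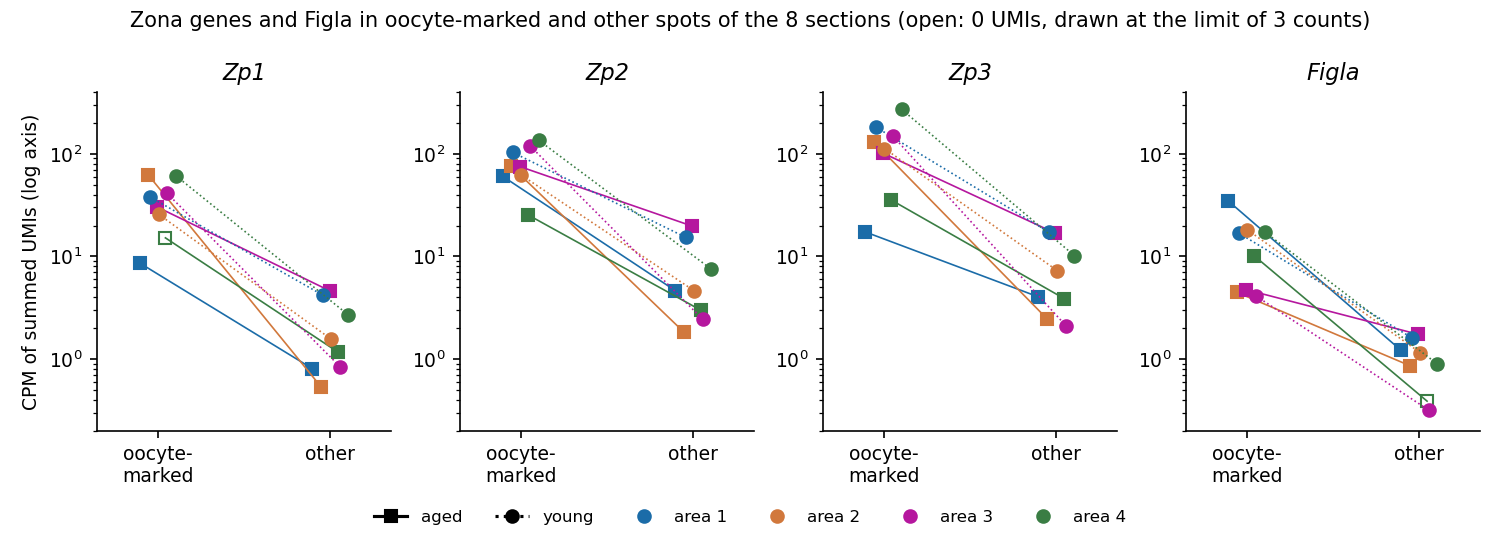
CPM of the 4 genes in oocyte-marked and in other spots of each section (log axis), with squares and solid lines for aged and circles and dotted lines for young sections. All filled pairs lie higher in marked spots, and open points are counts of 0 drawn at the limit of 3 counts, which for Zp1 in aged 4 stands for 0 UMIs in 8 marked spots.

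Zona transcripts were also found away from marked spots at a low level. In the 1831 spots at least 4 array steps (of 100 µm) from any marked spot, 12.1% had a zona UMI, at a median of 15667 UMIs per spot, against 84.5% of the 575 marked spots, at a median of 23519 UMIs. By section the distant share ran from 5.04% in aged 2 to 25.5% in young 4, leaving aside young 1 with only 3 distant spots. Marked spots had the larger share in every section, at 50 to 92.3%. Summed levels were 298 CPM in marked and 7.18 CPM in distant spots. In the distant spots of aged 1, aged 2 and aged 4 the zona genes summed to 9.75, 3.31 and 8.34 CPM, against 11.3, 11.05 and 9.35 CPM in these sections as a whole, so that the whole-section level of aged 1 and aged 4 was close to that of spots far from oocyte markers. Zp3 gave 56.1% of the zona UMIs in marked and 52.2% in distant spots over all sections pooled, but was lower in the marked spots of aged 1, aged 2 and young 2. Figla was found in 20.9% of marked spots and 0.874% of distant spots.

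Pooled over sections, zona transcripts and Figla were lower with each step away from the richest spots. In total 48 spots had at least 10 UMIs of the marking genes and no higher spot within 2 steps, 2, 3 and 1 of them in aged 2, aged 3 and aged 4 and 18, 14, 1 and 9 in young 1 to young 4. Zona transcripts averaged 1327 CPM in these spots and 20.2% of that level 1 step away, 6.52% at 2 steps, 3.41% at 3 steps and 0.922% at 5 or more steps. Figla was at 24.9, 11.7, 5.64 and 1.31% over the same distances. The summed granulosa markers, whose cells surround the oocyte in the follicle, were still at 92.4, 81.8, 69.1 and 36.2%. After 1 step these markers were at 77.1 to 97.2% in young 1, young 2 and young 4. They were at 107 to 114% in aged 2, aged 3 and aged 4, but at only 12.6% in young 3. In the sections with at least 9 such spots, zona transcripts 1 step away were at 21.3% in young 1, 14.3% in young 2 and 24.9% in young 4. In aged 3, with 3 such spots, they were at 17.1% after 1 step and still at 7.79% at 5 or more steps. Around the single such spot of young 3 they were at 1.37% after 1 step and had no further order, with 0 UMIs at 2 steps and 8.00 CPM at 5 or more. In aged 2 they were at 4.07 CPM at 4 steps and 4.60 CPM beyond. Figla had 0 UMIs in the richest spots of aged 4 and young 3, and most of the 48 spots lay in young 1, young 2 and young 4.

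**Figure D4:**
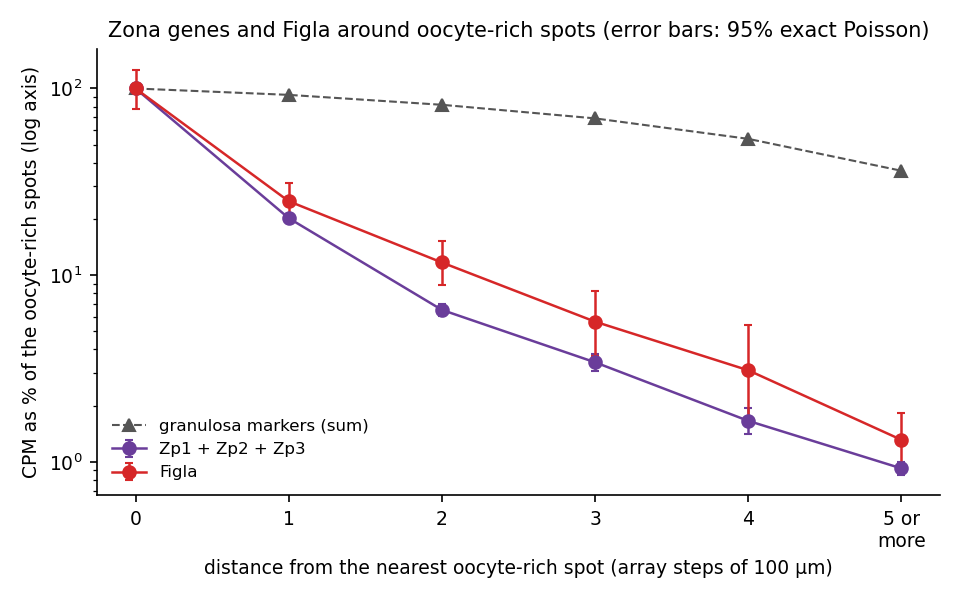
Level of the summed zona genes, Figla and summed granulosa markers by distance from the nearest of 48 oocyte-rich spots, as % of the level in those spots (log axis), pooled over 7 sections, with 95% exact Poisson intervals for the zona genes and Figla. After 1 step the zona genes are at 20.2%, Figla at 24.9% and the granulosa markers at 92.4%.

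Over all sections pooled, Zp3 took a larger share of the zona UMIs in spots with more oocyte RNA. From spots with 0 marking UMIs to those with 1 to 2, 3 to 9, 10 to 29 and 30 or more, the share of Zp3 was 47.1, 50, 52.2, 55.3 and 57.8%, that of Zp2 was 40.5, 38.0, 34.6, 32.5 and 29.5%, and Zp1 stayed within 12.01 to 13.1%. Zp3 was higher in spots with 10 or more marking UMIs than in the rest in 5 of 5 sections with at least 50 zona UMIs in each class, by 7.48 ± 7.82 percentage points (SD, exact sign-flip p = 0.0625, the smallest that 5 sections allow, and 0.188 adjusted over the 3 genes). In young 3 the class of 10 or more marking UMIs was 1 spot with 51 zona UMIs. Zp2 was lower in 4 of the 5 sections, with a mean difference of -6.87 ± 6.19 points (SD, adjusted exact sign-flip p = 0.188). Neither passed the threshold, and the classes were chosen after the values were seen.

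The ratio of Figla to the zona genes also varied with the amount of oocyte RNA, in classes chosen after the values were seen. Over all sections Figla was counted at 5.78, 6.36, 6.34, 9.64 and 3.49 UMIs per 100 zona UMIs over the same 5 classes, with 95% exact intervals of 7.64 to 12.04 at 10 to 29 and 2.77 to 4.33 at 30 or more marking UMIs. In spots with 30 or more marking UMIs the ratio was 1.72 in aged 3, 3.72 in young 1, 5.79 in young 2 and 2.00 in young 4. In spots with 10 to 29 it was 2.90, 11.03, 18.0 and 5.35 in the same sections. The pooled ratio was highest in the class of 10 to 29 and lowest in that of 30 or more. In young 1 the lowest ratio was instead that of spots with 1 to 2 marking UMIs, at 3.23. No test is given, since these classes are the extremes of the pooled values. The level of Figla itself was 58.7 CPM in the richest class and 25.5 CPM in the next, while the zona genes were at 1684 and 265 CPM. Granulosa markers were at 4627 and 4425 CPM in these classes, and the spots lay 2.69 and 2.25 steps from the rim of the section on average.

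**Figure D5:**
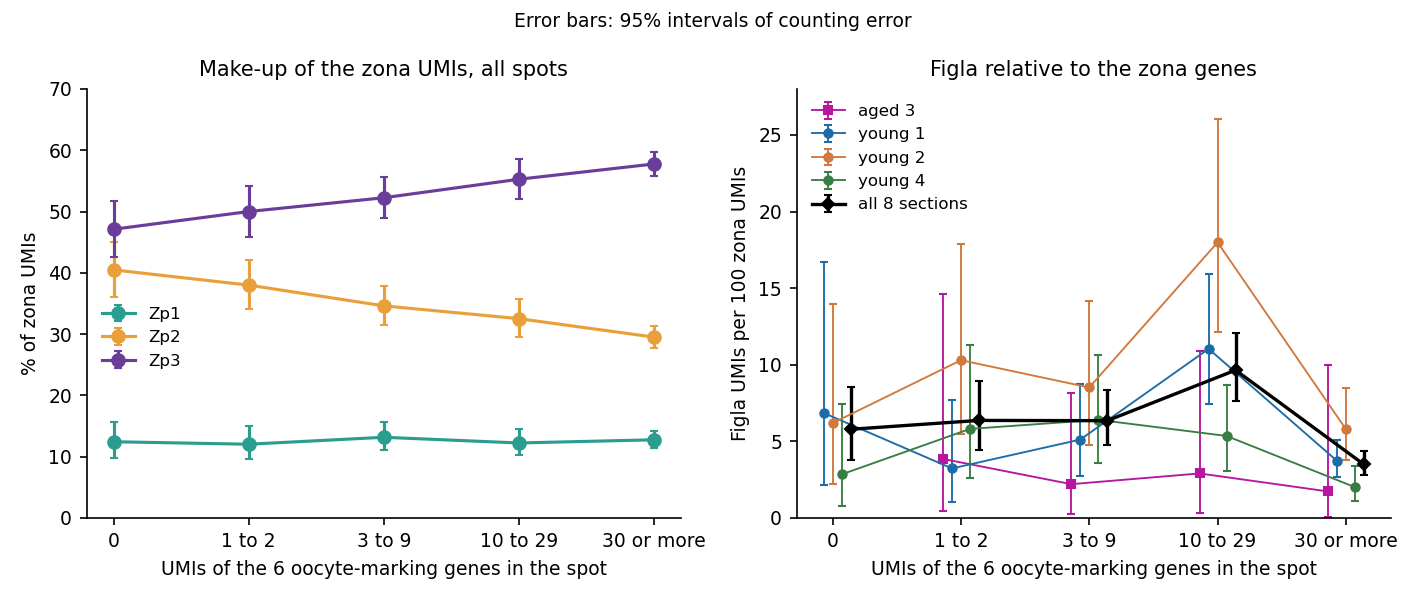
Left, share of Zp1, Zp2 and Zp3 among zona UMIs by the number of marking UMIs of the spot, over all sections; right, Figla UMIs per 100 zona UMIs in aged 3, 3 young sections and all sections pooled, where a class had at least 50 zona UMIs. Error bars are 95% intervals of counting error; Zp3 runs from 47.1 to 57.8%, and the pooled Figla ratio is lowest in the class of 30 or more at 3.49.

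The members were often found in the same spots. Of the 87 spots with at least 10 zona UMIs, 77 held all 3 zona genes, 43 held Figla and all 87 were oocyte-marked. These spots were chosen by the summed zona UMIs, so the count with all 3 zona genes was largely fixed in advance. Figla was detected in 1.56, 4.52, 12.3 and 40.0% of spots with 0, 1, 2 and 3 of the zona genes detected, at median depths of 16025, 22263, 21534 and 25012 UMIs per spot. Of the 181 spots with Figla, 46 held no zona UMI, and 19 of these had no marking UMI either. Across spots, the mean Pearson correlation over the 8 sections was 0.413 for Zp1 with Zp2, 0.473 for Zp1 with Zp3 and 0.466 for Zp2 with Zp3, and 0.251 to 0.275 for Figla with each of them. Correlations of spots share the library and depend on depth, and those of Figla ran from -0.01 in sections with few Figla UMIs up to 0.50.

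The genes most like the zona genes were other oocyte genes. Among 16783 genes, ranked by the mean correlation with the summed zona genes across the spots of 8 sections, the highest were Nlrp14 (0.568), Ooep (0.537), Padi6 (0.536), Khdc1b (0.492) and Zar1 (0.482). Ooep, Padi6, Nlrp5 and Khdc3 (0.449) encode parts of the subcortical maternal complex of the egg. The remaining genes of the first 20 were Fbxw24, H1foo, Nlrp5, Dppa3, Elobl, Gdf9, E330017A01Rik, Fbxw15, Gm13023, Pkd2l2, Ninj2, Astl, E330034G19Rik and Fbxw26, at 0.437 down to 0.380. With Figla the first 5 were Dppa3 (0.305), Ooep (0.302), Padi6 (0.297), Nlrp14 (0.279) and Nobox (0.269), and Zp3, Zp1 and Zp2 took ranks 6, 8 and 9. Of the 20 genes most like the zona genes, 13 had a RefSeq promoter entry, all 13 with CANNTG, 6 with CAGGTG, 1 with CACGTG and 1 with TATAA. Over all 32851 promoters the shares were 66.2, 17.2, 6.02 and 22.8% in the same order. A gene was counted where any of its entries matched, whereas these shares count single entries, so the values are not directly comparable. No test was made, and the 20 genes were chosen from these data.

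Spots with at least 3 zona UMIs (zona-positive) were compared with the other spots of their section in the 6 sections with at least 3 such spots. Figla was at 7.37 and 8.30 CPM in the zona-positive spots of aged 2 and aged 3, against 0.854 and 1.74 CPM in their other spots, and these levels in zona-positive spots rested on 1 and 4 Figla UMIs. It was at 22.8, 23.4, 8.55 and 22.3 CPM in the zona-positive spots of young 1 to young 4, against 2.95, 1.99, 0.313 and 1.29 CPM in their other spots. The level in the zona-positive spots of young 3 rested on 1 Figla UMI. Figla rose in zona-positive spots by a log2 fold change of 3.40 ± 0.26 (SE, n = 6 sections, edgeR adjusted p = 7.04e-08), and without area 3 by 3.45. Figla lay at no more than 2.95 CPM in the other spots and passed the filter on low counts through its zona-positive spots. This favoured a rise in advance, so its adjusted p is no separate support. With no filter on low counts its fold change was 3.36 ± 0.26 (SE). Of 11946 genes tested, 697 rose (5.83%) and 694 fell (5.81%). Without young 2 the count of genes called was 773 in place of 1391. In the 2 aged sections alone Figla was at 2.53 ± 1.72 (SE) and was not called (edgeR adjusted p = 0.463), and the difference between ages was -0.93 ± 0.99 (aged minus young, SE, edgeR adjusted p = 0.693).

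The genes with the largest rise in zona-positive spots were Gm1965 at a log2 fold change of 4.82 ± 0.41, Nlrp9b at 4.71 ± 0.45, Ninj2 at 4.62 ± 0.37, Fbxw24 at 4.60 ± 0.27, Fbxw26 at 4.58 ± 0.34, Fbxw16 at 4.57 ± 0.42, Oog4 at 4.53 ± 0.37, Nlrp14 at 4.53 ± 0.31, Trim61 at 4.50 ± 0.44 and Gm13023 at 4.47 ± 0.33 (SE), each higher in 6 of 6 sections. Several were low in the other spots, with Nlrp9b at 0 to 0.871 CPM and Fbxw16 at 0 to 1.74 CPM. Genes this low enter the test through the zona-positive spots, and these genes were ranked by the same rise. The 6 of 6 sections are therefore no separate support. Fbxw and Oog genes belong to families of near-identical copies, whose reads cannot always be told apart, and the value of any single copy is uncertain. The genes with the largest fall were 2010003K11Rik (-1.62), Hsd11b1 (-1.60), S100a4 (-1.58), Ptgfr (-1.56), Akr1c18 (-1.54), Star (-1.52), Dynlrb2 (-1.50), Gpx3 (-1.50), AI429214 (-1.47) and Olfr1250 (-1.46). Akr1c18 and Ptgfr, a progesterone-inactivating enzyme and the prostaglandin F receptor, mark the corpus luteum, and Star moves cholesterol into mitochondria for steroid synthesis. Akr1c18 was at 501 to 3389 CPM in zona-positive and 3469 to 8176 CPM in other spots. Dynlrb2 was lower in only 3 of the 6 sections.

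Of 30 oocyte secreted and maternal genes, 24 were tested in zona-positive spots, 23 rose and none fell, with a median log2 fold change of 3.83 against -0.01 over all genes. Genes of low count enter such a test mainly through the spots where they are high. Npm2, Nlrp5, Dppa3 and Khdc3 were at 3.80, 3.94, 3.49 and 3.85. Of the oocyte transcription factors, Nobox (3.59 ± 0.33) and Lhx8 (3.67 ± 0.42) rose, while Taf4b was at 0.67 ± 0.21 (edgeR adjusted p = 0.0520) and Foxo3 at 0.16 ± 0.16, and the other 3 were not tested. Of the genes of fertilisation, Astl (3.97 ± 0.25) and Izumo1r (3.84 ± 0.28) rose, Furin, which encodes a proprotein-cutting enzyme, fell by 0.42 ± 0.11, and Cd9, which encodes a membrane protein that sperm and egg need to fuse, was at 0.14 ± 0.15 (SE).

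None of the possible partners of FIGLA, nor of their inhibitors, was called in zona-positive spots. Over all genes tested there, 5.83% rose and 5.81% fell, so 0 calls among 7 genes lie near these shares. In zona-positive spots Tcf3, Tcf4 and Tcf12 were at 0.23 ± 0.12, -0.09 ± 0.13 and -0.27 ± 0.12, and Id1, Id2, Id3 and Id4 at -0.40 ± 0.15, -0.37 ± 0.16, -0.09 ± 0.17 and 0.00 ± 0.36 (SE), with 0 of 7 called by edgeR and the lowest adjusted p at 0.102. In oocyte-marked spots Id1 fell by 0.47 ± 0.14 (SE, edgeR adjusted p = 0.0337), and the other 6 were not called. Over all genes tested in marked spots, 6.26% rose and 6.6% fell. Of 11 other genes with a zona pellucida domain, 2 had enough counts. Eng, which encodes an endothelial receptor, fell by 0.53 ± 0.13 (edgeR adjusted p = 0.0136), and Tgfbr3 was at 0.02 ± 0.13 (SE).

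Zona-positive spots lay 2.75 and 2.75 steps from the rim of the section in aged 2 and aged 3, against 3.18 and 2.27 steps for their other spots. In young 1 to young 4 they lay 2.43, 2.06, 2.00 and 3.23 steps from it, against 3.32, 3.28, 2.86 and 4.29 steps for other spots. They were nearer the rim in 5 of 6 sections, with a mean difference of -0.663 ± 0.619 steps (zona-positive minus other, SD, two-sided exact sign-flip p = 0.0938, smallest possible 0.0312), and aged 3 was the exception. This test was chosen after the values were seen.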

How the data were processed

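The authors deposited unnormalized UMI counts, whole numbers for each gene in each spot, and array and pixel positions of spots. Space Ranger 1.2.1 and build mm10 are named in the submitters' processing notes. Annotation and strand use: not given in the sources used here. Of 4263 spots over tissue, 4191 had a column and were used. Spots were assigned to ages by splitting each area at its widest gap and reading the side from the labels, reading pixel rows downwards and pixel columns rightwards. The files hold no image to check this orientation.

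Counts were summed per section, or per section and kind of spot, the section being the replicate, and tested with edgeR 4.0.16 (R 4.3.3, TMM, filterByExpr, Benjamini-Hochberg over all genes fitted, threshold 0.05). Fits of marked and zona-positive spots held 12635 and 11949 genes, and the genes that choose the spots are left out of the counts given. DESeq2 1.42.0 was an alternative. CPM are summed counts over total UMIs. Other tests were two-sided exact permutation tests over sections (scipy 1.17.1). Scripts were tested on simulated data. Likeness used log(1 + counts scaled to 10000 per spot), genes with at least 20 UMIs. Genes named are the members, the 20 most like the zona genes and 5 most like Figla, the 10 highest and 10 lowest called in zona-positive spots, and up to 4 of each list by lowest p. The lists are oocyte transcription factors, FIGLA partners, Id genes, oocyte secreted and maternal genes, fertilisation genes and other zona-domain genes. The members, lists and tests were chosen with earlier results of these data known. Sections of an area share a library, and after removing the mean of each age, paired sections correlated across 13966 genes at 0.0150, 0.173, -0.189 and 0.211. Promoter sequences came from RefSeq (GRCm38.p6), motif counts from windows of 250 bases. Alternatives were other scalings, filters, thresholds of 1 and 10 UMIs, thinning, k-means splitting, the area as a block, and leaving out sections or area 3.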

Additional observations from a re-analysis of the deposited data

Results flagged for a closer look

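Dixon's test, which by chance marks about 1 in 20 groups, marked 8 of 30 groups of 4 sections, 7 of them through aged 3. Zp1 was at 14.4 CPM in aged 3, against 0.987 to 2.00 CPM in the other aged sections. Zp2 was at 40.7 CPM there, against 3.54 to 5.92 CPM. Zp3 was at 49.0 CPM, against 4.34 to 5.47 CPM. The summed zona genes were at 104 CPM, against 9.35 to 11.3 CPM. Zp1 was found in 11.3% of the spots of aged 3, against 1.67 to 2.16% in the other aged sections, and Zp3 in 29.2%, against 4.44 to 7.69%. Aged 3 had 3.11 zona foci per 100 spots, against 0.240 to 0.669. Among young sections, Zp3 made up 44.4% of the zona UMIs in young 3, against 55.2 to 56.4% in the others.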

How the results depend on the processing

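No alternative reversed the direction of a member between ages or kinds of spots, and the 4 members were not called between ages in any. Between ages 0 genes were called by edgeR, also with each section left out (0 to 0), and 6 by DESeq2. In oocyte-marked spots 1623 genes were called, 192 with marking at 1 UMI, 2437 with no filter, 710 in aged sections alone and 1173 to 1640 with a section left out. In zona-positive spots 1391 genes were called, 214 at 1 UMI, 2248 with no filter, 771 in aged sections alone and 773 (without young 2) to 1429 with a section left out. Figla could not be tested at 1 UMI. Differences aged minus young turned over for foci at 1 UMI (1.62 per 100 spots) and for the Zp1 share within zona-positive spots (-1.50 percentage points). With a section left out, the share of spots with zona UMIs differed by -26.0 to -10.0 points, foci by -1.83 to -0.512, the shares of Zp1 by -1.34 to 1.77, of Zp2 by 2.34 to 9.09 and of Zp3 by -9.51 to -4.10 points, and Figla per 100 zona UMIs by -0.592 to 4.35. The richest spot differed by -3937 as CPM (exact permutation p = 0.0571), by -158 UMIs without area 3 and by -153 to -92.3 UMIs with a section left out, where the designs of 6 and 7 sections cannot pass the threshold. With the capture area as a replicate block, 0 genes were called between ages (435 at an unadjusted p under 0.05), the share of spots differed by -16.9 points (exact p = 0.500), and the richest spot by -124.5 UMIs, which 4 pairs cannot bring past the threshold (exact p = 0.125). The block changed no other call. Causes were not tested. Aged sections hold 2 to 10 Figla UMIs, which limits every Figla value there.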

Other observations

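Ovgp1, an oviduct glycoprotein gene whose product associates with the zona of the ovulated egg, was counted at 2.17, 4.42, 23.8 and 1.52 CPM in aged 1 to aged 4, against 2.12, 44.4, 53.7 and 2.66 CPM in young 1 to young 4. It was highest in young 2, young 3 and aged 3. The 46 spots with Figla and no zona UMI lay 3.39 steps from the rim on average, with a median of 1 marking UMI, and the 135 spots with both lay 2.48 steps from it, with a median of 12 marking UMIs.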
